A study of Drosophila melanogaster with 18 samples.

Results

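Larvae carrying RNAi constructs against both NAT10 and Xrp1 were compared with control larvae through their input RNA libraries, 3 against 3. The members of the comparison are the genes of Drosophila melanogaster with at least 1 FPKM (fragments per kilobase of gene length, scaled to library size) in at least 3 of the 9 input libraries, which left 11557 of 12301 genes in the deposited table. The tissue was the whole larva of the last instar. Control larvae carried the driver alone (genotype written Dats-GAL4/+ in the labels), and the other genotypes carried it with UAS-NAT10-RNAi or with UAS-NAT10-RNAi and Xrp1-RNAi. The driver is da-GAL4, active throughout the body, with tub-GAL80ts, a repressor that works at low temperature, and all 3 genotypes carry it. Eggs were collected over 24 h at 18 °C and first-instar larvae were moved to 30 °C. Each sample pooled 40 larvae, and the labels give no sex. Control larvae were taken at 72 h and NAT10 RNAi larvae at 120 h. For larvae carrying both constructs the labels state no time of harvest, so age and genotype cannot be told apart in what follows. The 9 input libraries are the part of the poly(A) RNA, fragmented to about 100 nt, that was set aside (10%) before capture with an antibody against N4-acetylcytidine (ac4C), which gave a further 9 libraries.

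NAT10 is the acetyltransferase that places ac4C on RNA, including ribosomal RNA, and it acts in ribosome production. Xrp1 is a bZIP transcription factor that pairs with Irbp18. In Drosophila it is induced when ribosomal protein genes are lost or proteins misfold, and it is known to slow growth and to promote the elimination of weak cells. Larval growth ends under control of the steroid ecdysone, whose rise switches on salivary glue genes and later the entry into metamorphosis.

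The targeted transcripts were examined first. Xrp1 (FBgn0261113, BDGP6 3R:18914968-18926849) stood at 208, 211 and 214 FPKM in control and 40.4, 40.9 and 43.9 with both constructs. It was lower in every library with both constructs than in any control, and the log2 fold change, on the log2(FPKM + 1) scale used throughout, is given with its error (-2.31 ± 0.04, limma adjusted p = 2.31e-11; values after ± are standard errors of the log2 fold change). The NAT10 gene, l(1)G0020 (FBgn0027330, X:8716713-8720277), had 5.13, 4.97 and 5.46 FPKM in control and 6.18, 6.04 and 6.02 with both constructs. These levels were slightly higher than control, not lower (0.20 ± 0.06, limma adjusted p = 0.025), and that call was lost on leaving out control replicate 1 (limma adjusted p = 0.0626) or 2 (0.0872), or replicate 1 (0.0509) or 2 (0.0514) with both constructs. In NAT10 RNAi l(1)G0020 had 5.22, 5.93 and 5.76 FPKM. A stretch within the gene that the authors list as a capture peak (X:8718667-8718846) went the other way. It held 8, 10 and 13 input reads in control and 1, 0 and 0 with both constructs. That difference rests on few reads and was not tested. Levels over the whole gene thus check the Xrp1 construct and do not check the one against NAT10. The exons of l(1)G0020 overlap those of a neighbouring gene by 234 bp, so its count may hold reads of both.

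Across all 11557 genes, 4710 (40.8%) differed from control (limma, Benjamini-Hochberg adjusted p under 0.05). Of all genes tested, 21.5% were called higher (2490 genes) and 19.2% lower (2220), and the median log2 fold change was 0.0012. The counts of each gene list below are to be read beside these shares of all genes. Reads in genes per library ran from 15518179 to 21848490 with both constructs and from 17291110 to 19223499 in control. Nothing in the labels says whether the 3 samples of a genotype came from separate crosses, so the p-values measure the spread between these samples. Differences of at least 2-fold were few, with 137 genes higher (1.19%) and 60 lower (0.519%). The log2 fold changes of 90% of the genes lay between their 5th percentile of -0.41 and their 95th of 0.52. Along the axis of largest variance among the 9 libraries, which carried 70.6% of it, control scored from -27.4 to -26.4, both constructs from -14.8 to -10.6 and NAT10 RNAi from 38.8 to 39.2. On the next axis (20.6%) both constructs scored from 18.6 to 22.1, above the other libraries, which lay between -16.7 and -4.35. Replicate 1 with both constructs stood apart from replicates 2 and 3, as described at the end, and its weight in a fit with library weights was 0.291, against 0.859 to 1.54 for the others. Comparisons with NAT10 RNAi use the same fit. The median of all genes lay 0.16 lower on the log2 scale with both constructs than in NAT10 RNAi, and at -0.0023 once libraries were rescaled by their median ratio, so small differences from NAT10 RNAi are read against that shift.

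On the log2(FPKM + 1) scale, which ranks the rises and falls given here, the largest rise was in a heat shock gene. That scale understates changes of genes that start near 0, and in the authors' deposited table the log2 fold change of CG12522 (8.84) was above that of Hsp70Bb (7.52). Hsp70Bb, one of the near-identical Hsp70 chaperone genes, stood at 2.24, 2.19 and 2.31 FPKM in control and 383, 406 and 450.4 with both constructs (6.99 ± 0.05, limma adjusted p = 1.05e-13). Its level in NAT10 RNAi was 242, 239 and 245 FPKM, so both RNAi genotypes lay far above control, and the one with both constructs was the higher (0.77 ± 0.05, limma adjusted p = 7.39e-07). Hsp70Ba went the same way, with 1.53, 1.92 and 1.84 FPKM in control and 27.6, 26.3 and 28.9 with both constructs (3.37 ± 0.07, limma adjusted p = 1.67e-10) and 16.1, 15.4 and 14.5 in NAT10 RNAi. PGRP-SC1a, which encodes an enzyme that cleaves bacterial peptidoglycan, had 0.187, 0.265 and 0 FPKM in control and 6.13, 7.74 and 8.63 with both constructs (2.88 ± 0.13, limma adjusted p = 8.12e-08). In NAT10 RNAi it had 0.199, 0.2800 and 0.0941, with values overlapping control, so the level with both constructs stood above each of the other genotypes (against NAT10 RNAi 2.83 ± 0.13, limma adjusted p = 3.37e-08). Of the 20 genes named by size (10 in each direction), 17 differed between both constructs and NAT10 RNAi, against 61.4% of all genes, but the 20 were chosen on the same libraries and nothing is read from that count.

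**Figure D1:**
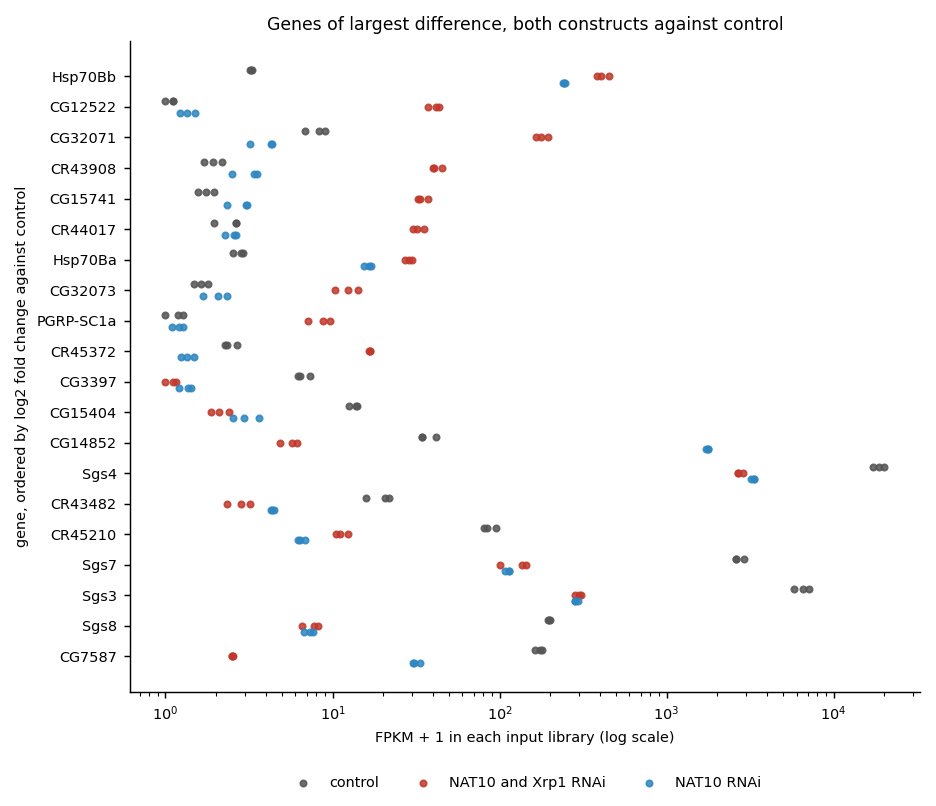
FPKM + 1 on a logarithmic axis in each of the 9 input libraries for the 10 genes of largest rise and the 10 of largest fall with both constructs, 3 points per genotype. Points of both constructs lie apart from control in all 20 genes by the rule that chose them. In each of the 10 rises they also lie above all points of NAT10 RNAi.

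Of the 10 largest rises, 3 were in neighbouring genes. CG12522 (3L:11108235-11108732) stood at 0.1101, 0 and 0.116 FPKM in control and 36.1, 40.5 and 42.5 with both constructs (5.24 ± 0.09, limma adjusted p = 7.86e-11). CG32071 (3L:11103421-11103873) stood at 7.99, 5.85 and 7.27 FPKM in control and 165, 176 and 194 with both constructs (4.48 ± 0.13, limma adjusted p = 2.72e-09), and CG32073 (3L:11107008-11107582) at 0.477, 0.633 and 0.804 FPKM in control and 9.29, 11.4 and 13.3 with both constructs (2.90 ± 0.15, limma adjusted p = 1.90e-07). In NAT10 RNAi CG12522 had 0.352, 0.496 and 0.222 FPKM, CG32071 3.36, 3.27 and 2.199 and CG32073 1.32, 1.07 and 0.674, all below every library with both constructs. The 3 genes lie within 5312 bp. Of the 12 other tested genes within 25 kb on either side, 2 rose and 4 fell, and their log2 fold changes ran from -0.50 to 0.24, below all 3 of the large rises. Irbp18, which encodes the partner of Xrp1, lies in the same window and fell, from 24.9, 25.1 and 24.00 to 14.6, 17.4 and 19.7 FPKM (-0.505 ± 0.09, limma adjusted p = 0.00115). This neighbourhood was looked at after the values were seen. The exons of Irbp18 overlap those of a neighbouring gene by 95 bp, so its count may hold reads of both.

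A further pair of large rises came from overlapping genes on chromosome X. CG15741 (X:11837543-11838026) had 0.567, 0.752 and 0.955 FPKM in control and 31.7, 32.2 and 36.4 with both constructs (4.29 ± 0.12, limma adjusted p = 2.09e-09), and CR43908, on the opposite strand at X:11837633-11838026, had 0.696, 0.923 and 1.17 FPKM in control and 38.9, 39.6 and 44.5 with both constructs (4.45 ± 0.13, limma adjusted p = 4.17e-09). All 394 bp of CR43908 lie within CG15741, and the strand setting of the counting is not given in the sources used here, so reads of the genes cannot be told apart. The 5 other tested genes within 25 kb ran from -0.17 to 0.30. CR44017 and CR45372, named by the prefix for non-coding RNAs, rose from 1.64, 1.64 and 0.961 to 34.1, 29.3 and 30.9 FPKM (3.76 ± 0.12, limma adjusted p = 5.59e-09) and from 1.26, 1.35 and 1.67 to 15.8, 15.7 and 15.5 FPKM (2.78 ± 0.09, limma adjusted p = 4.69e-09). In NAT10 RNAi the former had 1.27, 1.64 and 1.57 and the latter 0.337, 0.474 and 0.239, all below every library with both constructs. 

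Salivary glue genes made up 4 of the 10 largest falls, and CG7587, listed with them here, was the largest fall on that scale. Glue proteins are secreted by the salivary gland before pupation and fix the pupa to its substrate. CG7587 stood at 174, 179.6 and 162 FPKM in control and 1.52, 1.505 and 1.497 with both constructs (-6.11 ± 0.05, limma adjusted p = 1.08e-13). Its level in NAT10 RNAi, 29.6, 29.4 and 32.2 FPKM, was well above that with both constructs (-3.64 ± 0.05, limma adjusted p = 5.68e-12). Sgs3 had 5764, 6536 and 7144 FPKM in control and 296, 282 and 306 with both constructs (-4.45 ± 0.07, limma adjusted p = 2.31e-11), and Sgs4, the most abundant, had 17143, 18768 and 20167 FPKM in control and 2680.3, 2672 and 2854 with both constructs (-2.77 ± 0.06, limma adjusted p = 2.21e-10). Groups did not overlap for any of the 8 glue genes, as for 49.7% of all genes. Sgs7 dropped from 2894, 2599 and 2599 to 100.3, 143 and 134 FPKM (-4.43 ± 0.11, limma adjusted p = 8.23e-10) and Sgs8 from 197, 194 and 198 to 5.56, 6.75 and 7.13 (-4.73 ± 0.08, limma adjusted p = 3.11e-11). Sgs1 had 454, 513 and 538 FPKM in control and 80.1, 80.2 and 87.7 with both constructs (-2.58 ± 0.06, limma adjusted p = 6.04e-10). In NAT10 RNAi it was nearly absent, at 0.933, 0.959 and 0.995 FPKM (5.41 ± 0.06, limma adjusted p = 1.57e-12 between the RNAi genotypes). Sgs5 and Eig71Ee were also higher with both constructs than in NAT10 RNAi (1.21 and 0.84 on the log2 scale), whereas CG7587 was lower. Sgs3, Sgs7 and Sgs8 did not differ between the RNAi genotypes as deposited (limma adjusted p = 0.58, 0.22 and 0.62). After rescaling these genes were called higher with both constructs (0.24, 0.35 and 0.21). Sgs4 was lower with both constructs (-0.28, limma adjusted p = 0.0018), but not after rescaling (limma adjusted p = 0.27). All 8 tested glue genes fell, with a median of -3.60, Sgs5 (-2.50) and Eig71Ee (-2.45) the least. All 8 were also called lower than control in NAT10 RNAi, with a median of -4.10. Summed over the list, levels ranged from 36571 to 41186 FPKM in control, from 5022 to 5181 with both constructs and from 4633 to 4772 in NAT10 RNAi. In RNA of whole larvae, fewer cells of a type and less RNA per cell cannot be told apart, here or for any tissue below.

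Not every salivary gland gene fell. Of 15 tested genes of the gland list, which shares 7 glue genes, 10 fell and 2 rose. The gland transcription factor gene sage had 12.5, 12.05 and 12.4 FPKM in control and 3.61, 5.13 and 4.61 with both constructs (-1.30 ± 0.11, limma adjusted p = 1.33e-05), below control in every library. fkh, which encodes the transcription factor that specifies the gland, fell much less, from 15.98, 17.4 and 17.3 to 14.3, 13.2 and 13.8 FPKM (-0.28 ± 0.05, limma adjusted p = 0.00194). In the opposite direction, ng2, a gland gene active before the glue genes, rose from 37.6, 33.2 and 37.5 to 99.6, 74.9 and 71.1 FPKM (1.15 ± 0.11, limma adjusted p = 1.86e-05). It stood at 96.4, 96.3 and 104 in NAT10 RNAi.

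Other large falls were in genes named only by number. CG14852 stood at 33.2, 40.7 and 33.4 FPKM in control and 4.72, 3.83 and 5.14 with both constructs (-2.73 ± 0.09, limma adjusted p = 1.04e-08) and at 1760.0, 1724 and 1768 FPKM in NAT10 RNAi. The RNAi genotypes thus lay on opposite sides of control in this gene (-8.31 ± 0.09, limma adjusted p = 1.57e-12 between them). CG3397 went from 5.36, 6.35 and 5.21 to 0.108, 0.149 and 0 FPKM (-2.61 ± 0.10, limma adjusted p = 2.84e-08) and CG15404 from 12.9, 13.1 and 11.5 to 1.101, 1.39 and 0.879 (-2.67 ± 0.13, limma adjusted p = 1.63e-07). CR45210 and CR43482 fell by 2.93 and by 2.79 on the log2 scale. In NAT10 RNAi CG3397, CG15404, CR45210 and CR43482 were below control too, CR45210 at 5.19, 5.38 and 5.88 and CR43482 at 3.32, 3.27 and 3.46 FPKM. Shared exon bases with a neighbouring gene leave the counts uncertain in CG14852 (82 bp), CR45210 (263 bp) and CR43482 (1 bp).

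Genes of the ecdysone pathway moved little beside the glue genes. Of 14 tested receptor and early response genes, 7 fell (50%, against 19.2% of all genes) and 1 rose (7.14%, against 21.5%), with a median of -0.13. Between 5 and 6 fell when each library was left out in turn. EcR, the ecdysone receptor, stood at 34.4, 33.5 and 34.2 FPKM in control and 36.6, 34.5 and 33.6 with both constructs (0.034 ± 0.04, limma adjusted p = 0.506), and its partner gene usp had a log2 fold change of 0.00035. Neither passed the test, and the libraries overlapped for EcR. Among those that fell were Blimp-1 (-0.47 ± 0.07, limma adjusted p = 0.000392) and Hr39 (-0.36 ± 0.06, limma adjusted p = 0.000529), which encode a repressor and a nuclear receptor induced by the hormone. br, the early gene needed for entry into metamorphosis, fell from 181, 186 and 193 to 154, 151 and 157 FPKM (-0.27 ± 0.03, limma adjusted p = 0.000111). ftz-f1, the competence factor of the prepupal stage, was the one that rose, from 7.41, 7.18 and 6.96 to 9.23, 8.94 and 9.34 FPKM (0.31 ± 0.05, limma adjusted p = 0.0005). Part of the exon sequence is shared with a neighbouring gene in Hr39 (61 bp), br (189 bp) and ftz-f1 (2521 bp).

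Several ecdysone genes also differed between both constructs and NAT10 RNAi. br stood at 71.97, 71.8 and 72.6 FPKM in NAT10 RNAi, lower than with both constructs (1.09 ± 0.03, limma adjusted p = 1.65e-09). For ImpE2, a late ecdysone-induced gene, values were 384, 362 and 350.3 FPKM in control and 284, 239.8 and 231 with both constructs (-0.54 ± 0.07, limma adjusted p = 0.000159), and 31.7, 30.6 and 32.6 in NAT10 RNAi (2.95 ± 0.07, limma adjusted p = 2.82e-10). Among 8 tested genes for ecdysone synthesis 4 fell and none rose, with a median of -0.17. spok, which acts in an early step of synthesis, had 6.58, 8.56 and 6.57 FPKM in control and 5.32, 4.35 and 4.81 with both constructs (-0.49 ± 0.10, limma adjusted p = 0.0038) and 0.761, 0.978 and 0.814 in NAT10 RNAi (1.65 ± 0.10, limma adjusted p = 4.13e-07). phm, which encodes a later hydroxylase, stood at 18.00, 18.2 and 16.9 FPKM in control and 17.9, 17.2 and 16.8 with both constructs and did not pass (-0.034 ± 0.04, limma adjusted p = 0.577), against 9.56, 9.45 and 9.07 in NAT10 RNAi (0.82 ± 0.04, limma adjusted p = 1.36e-07). ouib, a zinc finger regulator of spok, fell (-0.503 ± 0.08, limma adjusted p = 0.000486). Of 11 ecdysone effectors 4 rose and 2 fell, with 1 to 4 higher when each library was left out in turn (fewer without control replicate 1 or 3, or replicate 2 or 3 with both constructs). Cyp18a1, the enzyme that inactivates ecdysone, rose from 4.78, 5.05 and 5.15 to 7.33, 8.297 and 7.35 FPKM (0.53 ± 0.06, limma adjusted p = 8.24e-05), while in NAT10 RNAi it had 3.61, 3.68 and 3.65 (0.90 ± 0.06, limma adjusted p = 6.97e-07). ImpL2, which encodes a binding protein that blocks insulin-like peptides, fell from 102, 109 and 111 to 62.02, 63.99 and 64.5 FPKM (-0.75 ± 0.04, limma adjusted p = 6.19e-07). The exons of ImpL2 overlap those of a neighbouring gene by 1651 bp, so its count may hold reads of both.

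Genes listed as Xrp1 partners and responses were mostly lower than control. Of 15 tested genes, Xrp1 itself included, 8 fell (53.3%, against 19.2% of all genes) and 2 rose (13.3%, against 21.5%), with a median of -0.24. Only 1 rose without control replicate 2 or without replicate 1 or 3 with both constructs. Thor, which encodes the translation repressor 4E-BP, stood at 169, 171 and 179 FPKM in control and 58.4, 74.1 and 77.2 with both constructs (-1.30 ± 0.09, limma adjusted p = 1.48e-06) and at 113, 119 and 119.7 in NAT10 RNAi (-0.75 ± 0.09, limma adjusted p = 3.15e-05). Gadd45, a stress response gene, stood at 28.9, 28.1 and 30.6 FPKM in control and 15.8, 17.4 and 16.2 with both constructs (-0.79 ± 0.05, limma adjusted p = 5.66e-07), against 44.96, 45.7 and 43.5 in NAT10 RNAi (-1.39 ± 0.05, limma adjusted p = 3.10e-09). Both constructs had the lowest level of the 3 genotypes in each of these genes. The cell death genes rpr and hid fell, rpr from 11.1, 13.3 and 10.3 to 7.93, 7.28 and 7.92 FPKM (-0.52 ± 0.09, limma adjusted p = 0.00145) and hid from 28.3, 28.4 and 27.7 to 22.1, 19.9 and 20.99 FPKM (-0.41 ± 0.04, limma adjusted p = 3.87e-05). Ets21C, a transcription factor of the JNK response, rose from 3.08, 2.63 and 2.62 to 4.78, 4.58 and 4.56 FPKM (0.58 ± 0.07, limma adjusted p = 9.85e-05), yet stayed under the 8.48, 9.32 and 9.58 of NAT10 RNAi (-0.84 ± 0.07, limma adjusted p = 2.48e-06). The exons of Ets21C overlap those of a neighbouring gene by 1532 bp, so its count may hold reads of both.

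The secreted signals Ilp8, upd3 and upd1 did not pass the test against control and lay below NAT10 RNAi. Ilp8, the relaxin-like hormone that delays pupation, had 0, 0.1798 and 0.333 FPKM in control and 0.297, 0.205 and 0 with both constructs (-0.0033 ± 0.12, limma adjusted p = 0.989) and 5.26, 5.17 and 4.72 in NAT10 RNAi (-2.38 ± 0.12, limma adjusted p = 9.88e-08). upd3, a ligand of the JAK/STAT pathway, had 0.247, 0.328 and 0.416 FPKM in control and 0.435, 0.293 and 0.515 with both constructs (0.087 ± 0.09, limma adjusted p = 0.483) and 2.61, 2.13 and 2.27 in NAT10 RNAi (-1.24 ± 0.09, limma adjusted p = 1.26e-06). For the related ligand upd1 the values were 0.807, 0.998 and 0.998 FPKM in control and 1.01, 0.908 and 1.23 with both constructs (0.081 ± 0.08, limma adjusted p = 0.457), and 4.29, 4.53 and 4.27 in NAT10 RNAi (-1.39 ± 0.08, limma adjusted p = 2.14e-07). In these 3 genes the libraries of both constructs overlapped control and lay below all those of NAT10 RNAi. Socs36E, the feedback inhibitor and target of the JAK/STAT pathway, fell below control, from 13.9, 13.3 and 13.5 to 10.8, 10.8 and 11.2 FPKM (-0.29 ± 0.05, limma adjusted p = 0.000627), and had 23.3, 22.9 and 25.1 in NAT10 RNAi (-1.05 ± 0.05, limma adjusted p = 2.18e-08). The receptor gene dome rose from 25.3, 23.7 and 24.1 to 31.6, 29.3 and 32.4 FPKM (0.34 ± 0.04, limma adjusted p = 0.000161). TotA, a secreted Turandot stress protein, stood at 300.0, 310.1 and 294 FPKM in control and 277, 285 and 259 with both constructs. It was 644, 656 and 644 in NAT10 RNAi (-1.24 ± 0.04, limma adjusted p = 2.85e-09), and the log2 fold change of TotA from control was small (-0.14 ± 0.04, limma adjusted p = 0.0189); this call did not hold on leaving out control replicate 2 (limma adjusted p = 0.0804) or replicate 3 with both constructs (0.0571), or with only the 6 compared libraries in the fit (0.0545). These ligand and hormone genes were named after their values were seen. The exons of Ilp8 overlap those of a neighbouring gene by 26 bp, so its count may hold reads of both.

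JNK genes had 8 of 15 lower (53.3%, against 19.2% of all genes) and 2 higher (13.3%, against 21.5%), with a median of -0.11. Among those lower were grnd (-0.47 ± 0.07, limma adjusted p = 0.000506), the receptor for the TNF ligand, and egr, the ligand itself (-0.39 ± 0.07, limma adjusted p = 0.00158), while wgn, the other TNF receptor, rose (0.39 ± 0.05, limma adjusted p = 0.000268). Of 17 DNA damage and cell death genes 5 fell (29.4%) and 1 rose (5.88%). These lists share members, so their counts are not separate. The Xrp1 and JNK lists share puc, Gadd45 and Ets21C, and the Xrp1 and DNA damage lists share rpr and hid. The gene egr is in the JNK and DNA damage lists. Both crc and Thor are in the Xrp1 and ATF4 lists, and Thor is also in the insulin list. In the list of ATF4 and integrated stress genes, 7 of 16 fell (43.8%) and 2 rose (12.5%), with a median of -0.039. When each library was left out, 5 to 6 fell and 1 to 3 rose, the latter moved by control replicates 2 and 3 and replicate 2 with both constructs. AsnS, the asparagine synthetase gene, had 18.8, 18.6 and 17.7 FPKM in control and 4.72, 6.11 and 5.57 with both constructs (-1.59 ± 0.08, limma adjusted p = 1.79e-07), and 6.05, 5.65 and 5.34 FPKM in NAT10 RNAi, with no difference called between the RNAi genotypes (-0.052 ± 0.08, limma adjusted p = 0.59). crc, the gene for ATF4, fell from 137, 144 and 145 to 118, 121 and 122 FPKM (-0.24 ± 0.03, limma adjusted p = 0.000272) and stood at 169.9, 169 and 166 in NAT10 RNAi (-0.48 ± 0.03, limma adjusted p = 6.93e-07). Herp, a gene of the endoplasmic reticulum stress response, rose (0.39 ± 0.05, limma adjusted p = 8.43e-05). Part of the exon sequence is shared with a neighbouring gene in grnd (275 bp) and crc (2515 bp).

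**Figure D2:**
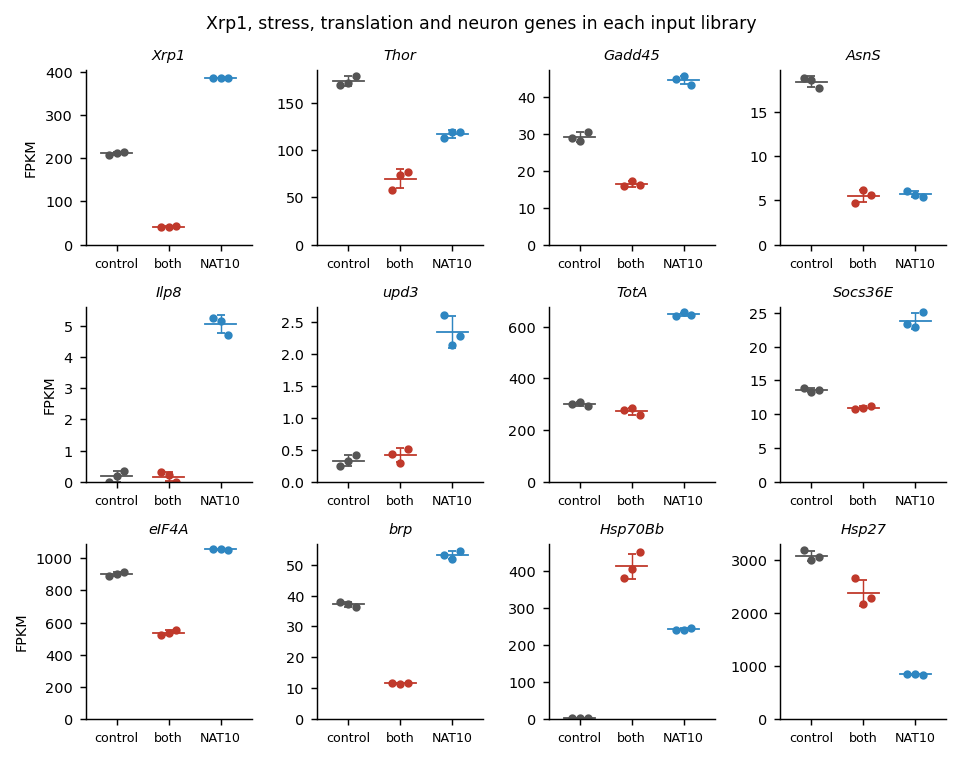
FPKM on linear axes from 0 in each input library, with the mean and SD of 3 libraries, for 12 genes in control (grey), both constructs (red) and NAT10 RNAi (blue). Both constructs had the lowest values of Xrp1, Thor, Gadd45, Socs36E, eIF4A and brp, overlapped control in Ilp8 and upd3, and were highest in Hsp70Bb.

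Most proteasome genes fell, and heat shock genes moved in both directions. Of 32 tested proteasome genes 21 fell (65.6%, against 19.2% of all genes) and 3 rose (9.38%, against 21.5%), and the median was -0.22. Between 2 and 5 rose when each library was left out, with control replicate 1 and replicate 3 of both constructs moving the count. Rpt6, an ATPase subunit of the regulatory particle, fell from 108, 113 and 113 to 73.97, 76.2 and 79.2 FPKM (-0.54 ± 0.03, limma adjusted p = 1.22e-06). Rpn9 and Prosbeta1, subunits of the regulatory particle and of the catalytic core, fell by 0.49 and by 0.46. Rpt2 had 132, 135 and 136 FPKM in NAT10 RNAi against 232, 217 and 213 with both constructs (0.71 ± 0.05, limma adjusted p = 4.55e-07) and 318, 294 and 289 in control (-0.44 ± 0.05, limma adjusted p = 3.53e-05). The heat shock list had 12 of 24 members higher and 7 lower. The rises included all 6 Hsp70 copies, from 0.37 (Hsp70Ab) to 6.99 (Hsp70Bb). The share of reads given to each copy is uncertain. In the 18 other genes 6 rose and 7 fell, with a median of 0.032. The co-chaperone gene DnaJ-1 rose from 64.7, 66.9 and 66.2 to 105, 104 and 104 FPKM (0.65 ± 0.03, limma adjusted p = 7.58e-08), and Hsp83, the HSP90 gene, from 879, 862 and 866 to 1077, 1041 and 1108 (0.31 ± 0.03, limma adjusted p = 5.18e-05). Small heat shock genes went down or did not pass. Hsp27 stood at 3183, 2996 and 3049 FPKM in control and 2657, 2177 and 2291 with both constructs (-0.38 ± 0.06, limma adjusted p = 0.000992), Hsp23 at 488, 445 and 467 FPKM in control and 346, 369 and 372 with both constructs (-0.36 ± 0.04, limma adjusted p = 0.000113) and Hsp26 at 127, 119.6 and 118 FPKM in control and 133, 126 and 115.5 with both constructs (0.035 ± 0.05, limma adjusted p = 0.626). All 3 were lower in NAT10 RNAi than with both constructs, Hsp27 at 839, 844 and 828 (1.499 ± 0.06, limma adjusted p = 2.26e-08). Counts may hold reads of an overlapping neighbour in Rpt6 (182 bp), Rpt2 (116 bp), Hsp70Ab (27 bp), Hsp83 (15 bp) and Hsp27 (49 bp).

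Translation genes did not move as a block. Genes for proteins of the cytosolic ribosome were higher in 14 (16.5%) and lower in 19 (22.4%) of 85, near the 21.5% and 19.2% of all genes, with a median of -0.033; without replicate 1 with both constructs 27 rose and 18 fell and the median turned to 0.044. That replicate lay 0.20 below the other 2 in the median of these genes. The acidic stalk proteins were the ones that rose most, RpLP1 from 328, 269 and 275 to 423, 566 and 479 FPKM (0.75 ± 0.10, limma adjusted p = 0.000262) and RpLP2 from 1863, 1465 and 1481 to 2407, 2749.6 and 2657 (0.71 ± 0.09, limma adjusted p = 0.000133). RpS29 fell from 613, 642 and 652 to 428, 461 and 479.8 FPKM (-0.48 ± 0.05, limma adjusted p = 2.39e-05), where NAT10 RNAi had 727, 738 and 703 (-0.66 ± 0.05, limma adjusted p = 8.42e-07). Of 49 translation factor genes 8 rose (16.3%) and 12 fell (24.5%, and 7 genes without control replicate 2), also near the shares of all genes. eIF4A, the helicase that opens the 5′ end of mRNAs, showed the largest fall among them. It stood at 891, 904 and 917 FPKM in control and 519.7, 535 and 550.3 with both constructs (-0.76 ± 0.03, limma adjusted p = 6.94e-08) and at 1060.2, 1058 and 1052 in NAT10 RNAi (-0.98 ± 0.03, limma adjusted p = 3.10e-09), so that only larvae with both constructs were below control. Of 34 ribosome biogenesis genes 16 rose and 4 fell, with a median of 0.17. mod, a nucleolar protein gene, rose from 145, 138 and 137 to 193, 185 and 182 FPKM (0.41 ± 0.04, limma adjusted p = 1.88e-05), whereas Nop56, a core protein of the particles that methylate ribosomal RNA, fell from 71.1, 66.4 and 72.1 to 51.00, 48.2 and 47.2 (-0.51 ± 0.04, limma adjusted p = 1.23e-05). Mitochondrial ribosomal proteins had 16 of 70 higher (22.9%, near the 21.5% of all genes) and 6 lower (8.57%, against 19.2%). Between 2 and 7 were lower when each library was left out, moved by control replicates 2 and 3 and replicate 1 with both constructs. The tRNA synthetases had 5 of 18 higher (27.8%, against 21.5% of all genes) and 3 lower (16.7%, near the 19.2% of all genes). These counts ran from 2 to 7 and from 1 to 3, moved by every library except control replicate 1. Shared exon bases with a neighbouring gene leave the counts uncertain in RpS29 (10 bp) and eIF4A (37 bp).

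Glycolysis genes rose almost throughout. Of 14 tested, 13 rose and none fell, with a median of 0.57, against 21.5% higher and a median of 0.0012 over all genes. Ldh, lactate dehydrogenase, stood at 23.1, 23.7 and 24.5 FPKM in control and 73.4, 72.9 and 73.02 with both constructs (1.58 ± 0.03, limma adjusted p = 2.35e-10). Gapdh1, one of the GAPDH genes, stood at 170.2, 154 and 152 FPKM in control and 399.5, 329 and 304 with both constructs (1.10 ± 0.09, limma adjusted p = 5.27e-06), above the 228, 233 and 224 of NAT10 RNAi (0.58 ± 0.09, limma adjusted p = 0.000199). All libraries with both constructs were above all controls in both genes, as in 25.3% of all genes. PyK, pyruvate kinase, went from 42.4, 41.6 and 36.5 to 56.2, 64.2 and 65.5 FPKM (0.61 ± 0.07, limma adjusted p = 5.70e-05) and stayed below the 109, 104 and 107 of NAT10 RNAi (-0.77 ± 0.07, limma adjusted p = 3.93e-06). Ldh had 84.4, 82.03 and 80.2 in NAT10 RNAi, with a difference that was called as deposited (-0.17 ± 0.03, limma adjusted p = 0.00161) and not after rescaling (0.022, limma adjusted p = 0.69). Oxidative phosphorylation genes had 29 of 80 higher and 4 lower (7 without replicate 2 with both constructs), with a median of 0.13, or 36 higher and a median of 0.21 without replicate 1. When each library was left out in turn, 22 to 36 of them rose and the median ran from 0.094 to 0.21. Cyt-c1 of complex III rose from 62.3, 58.7 and 59.5 to 101, 92.96 and 90.2 FPKM (0.64 ± 0.05, limma adjusted p = 2.50e-06) and ND-75 of complex I from 18.5, 18.4 and 17.6 to 27.2, 28.7 and 27.1 (0.58 ± 0.04, limma adjusted p = 1.15e-06). In the insulin and starvation list 8 of 15 fell and 1 rose (2 without replicate 2 or 3 with both constructs), with a median of -0.13. InR, the insulin receptor, fell from 11.1, 11.3 and 10.9 to 9.21, 8.29 and 8.83 FPKM (-0.31 ± 0.05, limma adjusted p = 0.000616) and bmm, the main fat body lipase, from 16.6, 17.3 and 16.7 to 12.02, 13.7 and 13.8 (-0.34 ± 0.05, limma adjusted p = 0.000677).

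Muscle genes were higher. Of 21 tested, 18 rose (85.7%, against 21.5% of all genes) and none fell, with a median of 0.72. Summed levels ranged from 6353 to 6586 FPKM in control and from 10325 to 10629.8 with both constructs. Mhc, the myosin heavy chain, stood at 118, 117 and 114 FPKM in control and 396, 409 and 407 with both constructs (1.79 ± 0.03, limma adjusted p = 3.92e-11). Mlc2, a myosin light chain, went from 588, 555 and 553 to 1309, 1336 and 1301 FPKM (1.22 ± 0.04, limma adjusted p = 3.28e-09) and up, troponin T, from 1073, 1027 and 1048 to 2195, 2215 and 2209.6 (1.07 ± 0.03, limma adjusted p = 3.28e-09). In each of these genes the groups did not overlap, as in 49.7% of all genes. NAT10 RNAi was higher still in up, at 2954, 3031 and 2981 (-0.44 ± 0.03, limma adjusted p = 1.11e-06), while Mhc at 479, 469 and 474 differed as deposited (-0.23 ± 0.03, limma adjusted p = 8.89e-05) and not after rescaling (-0.041, limma adjusted p = 0.318). Leaving out replicate 3 with both constructs, 1 muscle gene was called lower.

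Fat body and serum protein genes rose in 12 of 16 (75%, against 21.5% of all genes) and fell in 3 (18.8%, near the 19.2% of all genes), with a median of 0.31. Larval serum proteins are stored for metamorphosis. Lsp1gamma stood at 447, 452 and 451 FPKM in control and 835, 884 and 854 with both constructs (0.93 ± 0.04, limma adjusted p = 3.84e-08) and at 224, 219.6 and 207 in NAT10 RNAi, so the RNAi genotypes lay on opposite sides of control (1.98 ± 0.04, limma adjusted p = 5.34e-11 between them). Lsp1alpha rose from 1107, 1111 and 1089 to 1679, 1802 and 1820.3 FPKM (0.68 ± 0.04, limma adjusted p = 4.74e-07) and Lsp1beta by 0.51, but Lsp2 stood at 4148, 4216 and 4104 FPKM in control and 3925, 4377 and 4210.4 with both constructs and did not pass (0.0037 ± 0.04, limma adjusted p = 0.957). Fbp1, the receptor that takes serum proteins back into the fat body, was slightly lower at 1838, 2048 and 2051 against 2360.4, 2358 and 2345 FPKM (-0.25 ± 0.04, limma adjusted p = 0.00115), and far lower in NAT10 RNAi at 479.8, 477 and 477 (2.05 ± 0.04, limma adjusted p = 1.34e-10). FASN1, fatty acid synthase, rose from 25.1, 24.7 and 25.2 to 47.9, 48.5 and 49.03 FPKM (0.93 ± 0.03, limma adjusted p = 5.59e-09). Basement membrane genes, made largely by fat body and blood cells, had 7 of 10 higher and none lower, with a median of 0.25. vkg, a collagen IV chain, went from 23.3, 22.5 and 22.1 to 34.7, 37.7 and 36.3 FPKM (0.65 ± 0.04, limma adjusted p = 6.97e-07), under the 75.2, 78.5 and 76.9 of NAT10 RNAi (-1.06 ± 0.04, limma adjusted p = 7.15e-09). Of 12 hemocyte genes 5 rose and 2 fell (0 to 2 when each library was left out, moved by each control replicate). The median was 0.014, and hemocyte markers did not move together. NimC2, a phagocytosis receptor gene, and srp, a GATA factor gene, fell (-0.33 ± 0.09, limma adjusted p = 0.0152 for NimC2 and a log2 fold change of -0.12 for srp), while NimC1, eater, crq, He and NimB4 were not called. Hml, which encodes hemolectin, rose from 8.63, 8.44 and 8.100 to 13.6, 14.2 and 14.3 FPKM (0.68 ± 0.04, limma adjusted p = 5.66e-07) and stood at 39.5, 38.8 and 38.7 in NAT10 RNAi (-1.41 ± 0.04, limma adjusted p = 8.82e-10). Counts may hold reads of an overlapping neighbour in Lsp2 (2096 bp) and NimC2 (527 bp).

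Cuticle genes were mixed but led by large rises. Of 50 tested, 24 rose (48%, against 21.5% of all genes) and 9 fell (18%, near the 19.2% of all genes), with a median of 0.32. Lcp65Ab1, a larval cuticle protein, stood at 165, 161 and 158 FPKM in control and 663, 807 and 773 with both constructs (2.20 ± 0.07, limma adjusted p = 4.08e-09) and at 391, 376 and 357 in NAT10 RNAi (0.99 ± 0.07, limma adjusted p = 6.36e-07). It was thus highest with both constructs, although a near-identical copy, Lcp65Ab2, makes the split of reads uncertain. Cpr11A stood at 25.9, 26.6 and 26.6 FPKM in control and 84.6, 82.6 and 90.9 with both constructs (1.67 ± 0.04, limma adjusted p = 4.51e-10), and was highest in NAT10 RNAi at 169, 167 and 167 (-0.96 ± 0.04, limma adjusted p = 1.37e-08). The larval cuticle genes Lcp1 and Lcp2 did not pass with all libraries. Lcp1 had 2802, 2442 and 2458 FPKM in control and 2353, 3681 and 3545 with both constructs (0.29 ± 0.14, limma adjusted p = 0.129, and limma adjusted p = 0.000191 without replicate 1 of both constructs). Among 13 pigment and tanning genes 5 fell and 3 rose (1 to 2 rose when each library was left out, moved by each control replicate and replicate 2 with both constructs). y, the yellow body colour gene, had 0.0269, 0.0765 and 0.0284 FPKM in control and 1.17, 1.74 and 1.32 with both constructs (1.20 ± 0.09, limma adjusted p = 5.23e-06), and 0.0861, 0.0202 and 0.0815 in NAT10 RNAi, so it was near 0 except with both constructs (1.18 ± 0.09, limma adjusted p = 2.09e-06). e, which encodes the enzyme that conjugates dopamine, fell from 10.7, 10.7 and 10.6 to 7.398, 7.86 and 7.15 FPKM (-0.46 ± 0.07, limma adjusted p = 0.000716), and had 0.5399, 0.498 and 0.299 in NAT10 RNAi (2.55 ± 0.07, limma adjusted p = 1.15e-09).

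**Figure D3:**
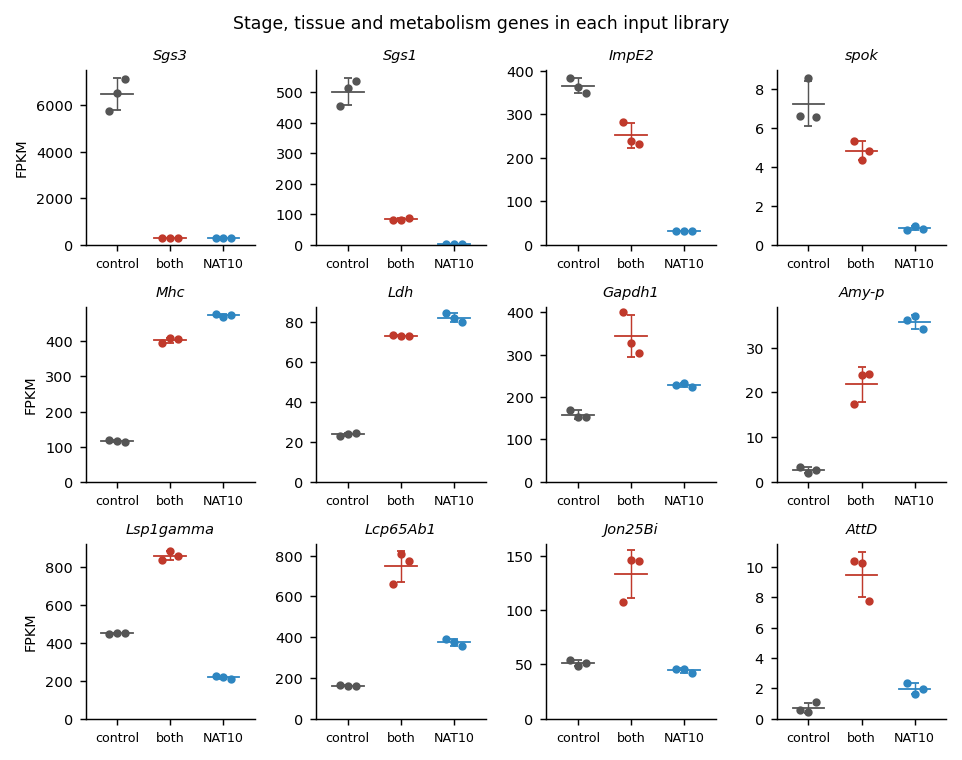
FPKM on linear axes from 0 in each input library, with the mean and SD of 3 libraries, for 12 stage, tissue and metabolism genes in control (grey), both constructs (red) and NAT10 RNAi (blue). Sgs3 and Sgs1 were low with both constructs, ImpE2 and spok lay between control and NAT10 RNAi, and Lsp1gamma, Lcp65Ab1, Jon25Bi, Gapdh1 and AttD were highest with both constructs.

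Many genes of digestion rose. Of 12 amylase and maltase genes 9 rose and none fell, with a median of 0.495. Amy-p, a starch-digesting amylase with a near-identical copy in Amy-d, stood at 3.25, 1.901 and 2.702 FPKM in control and 17.3, 23.8 and 24.2 with both constructs (2.66 ± 0.14, limma adjusted p = 3.60e-07) and at 36.2, 37.1 and 34.1 in NAT10 RNAi. Mal-A4, a maltase, stood at 1.66, 1.72 and 1.55 FPKM in control and 15.2, 16.1 and 14.6 with both constructs (2.62 ± 0.06, limma adjusted p = 2.35e-10). Controls were below 4 FPKM in every library in these genes. Of 27 gut serine proteases of the Jonah and trypsin families 17 rose and 2 fell (1 without control replicate 3), with a median of 0.41, which was 0.55 without replicate 1. Between 14 and 20 of them rose when each library was left out in turn, with medians from 0.32 to 0.55. Jon25Bi had 53.8, 48.2 and 51.4 FPKM in control and 108, 146 and 145 with both constructs (1.35 ± 0.10, limma adjusted p = 4.26e-06) and 45.9, 46.1 and 42.1 in NAT10 RNAi, below every control library (1.54 ± 0.10, limma adjusted p = 6.02e-07 between the RNAi genotypes). betaTry, a trypsin, went from 5.12, 4.12 and 5.503 to 9.62, 14.02 and 11.7 FPKM (1.10 ± 0.12, limma adjusted p = 5.62e-05). Replicate 1 was the lowest of the 3 in Amy-p, Jon25Bi and betaTry.

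Immune genes rose in part. Of 10 tested antimicrobial peptide genes 5 rose and 1 fell, with a median of 0.48 (0.69, and 7 higher, without replicate 1). Between 4 and 7 of them rose when each library was left out in turn, with medians from 0.35 to 0.69. AttD, an attacin, had 0.591, 0.4203 and 1.09 FPKM in control and 10.4, 10.3 and 7.77 with both constructs (2.63 ± 0.16, limma adjusted p = 6.73e-07) and 2.37, 1.66 and 1.94 in NAT10 RNAi (1.81 ± 0.16, limma adjusted p = 3.75e-06). DptA, a diptericin, had 3.54, 4.51 and 3.73 FPKM in control and 11.9, 15.02 and 15.7 with both constructs (1.62 ± 0.11, limma adjusted p = 1.50e-06). Both peptides act against Gram-negative bacteria, and for both the groups did not overlap, as in 49.7% of all genes. Among peptidoglycan recognition genes 5 of 10 rose and none fell, PGRP-SC1a among them. PGRP-LC, the membrane receptor of the Imd pathway, rose from 9.57, 9.12 and 8.54 to 14.9, 15.5 and 14.2 FPKM (0.66 ± 0.06, limma adjusted p = 1.51e-05). Lysozyme genes had 2 of 3 higher. LysD rose from 2.399, 1.62 and 2.29 to 4.16, 7.14 and 5.14 FPKM (1.05 ± 0.19, limma adjusted p = 0.00141), LysB had 1.97, 0.936 and 1.32 FPKM in control and 2.63, 2.32 and 2.47 with both constructs (0.55 ± 0.14, limma adjusted p = 0.0106; adjusted p = 0.0611 with DESeq2), and LysS had 29.5, 24.9 and 23.02 FPKM in control and 22.6, 38.4 and 34.2 with both constructs and did not pass (0.26 ± 0.16, limma adjusted p = 0.232). The exons of LysD overlap those of a neighbouring gene by 10 bp, so its count may hold reads of both.

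Detoxification families were less uniform. Cytochrome P450 genes had 24 of 57 higher (42.1%, against 21.5% of all genes) and 7 lower (12.3%, against 19.2%), with a median of 0.14. Cyp6a17 rose from 0.254, 0.241 and 0.268 to 3.69, 3.63 and 3.55 FPKM (1.88 ± 0.11, limma adjusted p = 5.54e-07), with 5.01, 3.29 and 3.91 in NAT10 RNAi and no difference called between those genotypes (-0.12 ± 0.11, limma adjusted p = 0.358). Cyp4e3 went from 6.81, 6.51 and 6.21 to 12.4, 13.1 and 13.6 FPKM (0.90 ± 0.05, limma adjusted p = 1.63e-07), far under the 58.3, 58.1 and 57.04 of NAT10 RNAi (-2.07 ± 0.05, limma adjusted p = 1.34e-10). Cyp6d5 fell, from 31.4, 29.9 and 28.7 to 16.1, 17.4 and 17.2 FPKM (-0.79 ± 0.05, limma adjusted p = 1.08e-06). In the glutathione S-transferase family, 8 of 25 were higher (5 without control replicate 3 or replicate 2 with both constructs) and 4 lower. GstT4 rose (0.72 ± 0.06, limma adjusted p = 5.51e-06) and GstE9 fell (-0.52 ± 0.11, limma adjusted p = 0.0033), the latter being above control in NAT10 RNAi with 4.01, 4.18 and 4.14 FPKM (-1.11 ± 0.11, limma adjusted p = 8.29e-06). UDP-glycosyltransferases had 3 of 19 higher and 4 lower, near the shares of all genes (1 to 3 and 2 to 4 when each library was left out, moved by every library except control replicate 2). The exons of GstE9 overlap those of a neighbouring gene by 40 bp, so its count may hold reads of both.

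Neuron and imaginal disc genes tended lower. Of 19 neuron genes 8 fell (42.1%, against 19.2% of all genes) and 2 rose (10.5%, against 21.5%), with a median of -0.12. brp, the active zone protein Bruchpilot, fell furthest. It stood at 37.8, 37.1 and 36.4 FPKM in control and 11.6, 11.4 and 11.7 with both constructs (-1.60 ± 0.03, limma adjusted p = 2.21e-10) and at 53.2, 51.98 and 54.5 in NAT10 RNAi (-2.11 ± 0.03, limma adjusted p = 1.54e-11). The other called neuron genes changed far less, such as elav, the neuronal RNA-binding protein, from 25.8, 26.00 and 25.4 to 18.8, 18.3 and 18.4 FPKM (-0.46 ± 0.03, limma adjusted p = 3.55e-06), and Appl (-0.29 ± 0.04, limma adjusted p = 0.000234). Gad1, which makes the transmitter GABA, rose from 2.78, 2.81 and 2.46 to 4.404, 4.27 and 4.196 FPKM (0.52 ± 0.06, limma adjusted p = 9.21e-05). Of 20 disc patterning genes 10 fell (50%) and 1 rose (5%), with a median of -0.17. hth, a homeobox gene of proximal appendages, fell from 93.1, 96.7 and 97.6 to 69.2, 60.6 and 63.9 FPKM (-0.56 ± 0.05, limma adjusted p = 8.70e-06), and hh, the hedgehog ligand, from 13.1, 13.2 and 13.99 to 9.73, 9.85 and 10.1 (-0.41 ± 0.04, limma adjusted p = 4.96e-05). vg, the wing selector gene, fell (-0.38 ± 0.09, limma adjusted p = 0.00927). Part of the exon sequence is shared with a neighbouring gene in elav (2994 bp) and hth (207 bp).

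Uro, urate oxidase of the Malpighian tubules, rose from 2.69, 2.68 and 2.93 to 6.68, 8.48 and 9.31 FPKM (1.27 ± 0.09, limma adjusted p = 3.66e-06), and stood at 33.7, 33.2 and 30.9 in NAT10 RNAi (-1.89 ± 0.09, limma adjusted p = 7.64e-08). Of the 9 tubule genes only Uro rose (11.1%, against 21.5% of all genes) and 2 fell (22.2%, near the 19.2% of all genes). Tracheal genes had 4 of 10 higher and 1 lower, with Gasp, a chitin-binding protein, from 216, 223 and 218 to 332, 307 and 322 FPKM (0.55 ± 0.04, limma adjusted p = 1.56e-06). Testis genes had 3 of 15 higher (20.0%) and 2 lower (13.3%), near the shares of all genes, with a median of 0.042 (1 to 3 lower when each library was left out, moved by control replicates 2 and 3 and replicates 1 and 3 with both constructs). The testis tubulin gene betaTub85D rose (0.46 ± 0.07, limma adjusted p = 0.00034), as did twe (0.33 ± 0.05, limma adjusted p = 0.000489), a meiotic phosphatase gene, and fzo (0.23). bam, the germline differentiation factor, fell from 5.04, 5.77 and 5.29 to 2.71, 3.01 and 3.52 FPKM (-0.64 ± 0.09, limma adjusted p = 0.000244). Of the dosage compensation genes, roX1 stood at 64.9, 62.6 and 61.7 FPKM in control and 50.2, 51.8 and 52.9 with both constructs (-0.28 ± 0.03, limma adjusted p = 9.75e-05) and at 90.6, 93.3 and 91.5 in NAT10 RNAi. Among the 5 tested genes of that list, msl-2 (0.20 ± 0.05, limma adjusted p = 0.014) and mle (0.21 ± 0.05, limma adjusted p = 0.0038) rose. The genes roX2 and mof were not called, and the list median was 0.063. The part of sex ratio in these results was not tested. Of 36 replication and cell cycle genes 7 rose (19.4%) and 6 fell (16.7%), near the shares of all genes (4 to 7 in each direction when each library was left out, the higher count moved by control replicates 2 and 3), and RnrS, a ribonucleotide reductase subunit, fell (-0.55 ± 0.07, limma adjusted p = 0.000161). Juvenile hormone genes had 2 of 7 higher (1 without control replicate 3) and 1 lower, and Kr-h1, the hormone's target gene, fell from 27.1, 27.7 and 27.1 to 21.3, 23.3 and 23.01 FPKM (-0.27 ± 0.04, limma adjusted p = 0.000525). Exons overlap those of a neighbouring gene, so that counts may hold reads of both, in twe (98 bp), bam (224 bp), roX1 and Kr-h1 (4168 bp).

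**Figure D4:**
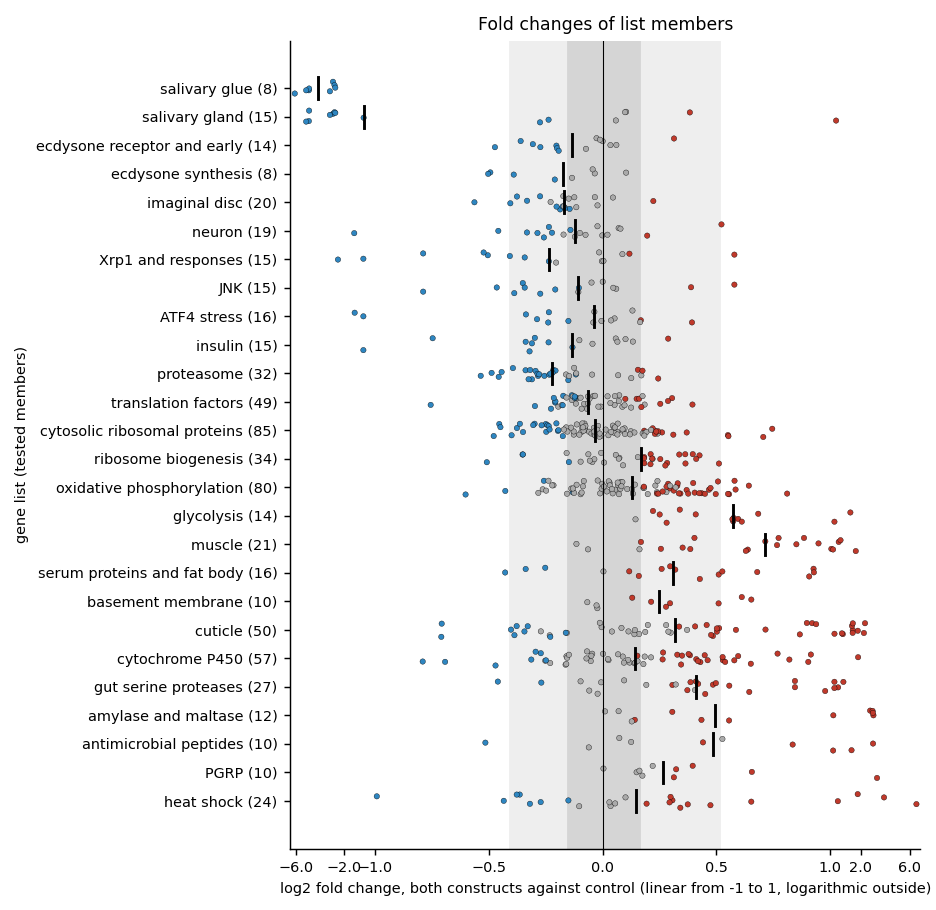
Log2 fold change of both constructs against control for each tested member of 26 gene lists (red called higher, blue called lower, grey not called), with the list median as a black bar and bands for the middle 50% and 90% of all 11557 genes. The axis is linear from -1 to 1 and logarithmic outside it. Glue genes lie far to the left, and the medians of muscle (0.72) and glycolysis (0.57) genes farthest to the right.

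Replicate 1 with both constructs differed from replicates 2 and 3 in a way related to gene length. Across the tested genes 210 differed by at least 0.5 on the log2 scale from the mean of the other 2 replicates, 181 of them lower and 29 higher. The corresponding count was 114 for replicate 2, 58 for replicate 3 and 62 to 69 for the control replicates. In genes shorter than 500 bp its median difference was -0.106, in genes of 500 to 1000 bp -0.102, and in genes of at least 4000 bp -0.016. Control replicates stayed between -0.028 and 0.019 in every length class. Several lists had lower values in that replicate, by -0.37 in the median for gut proteases, -0.32 for antimicrobial peptides, -0.22 for glycolysis and -0.20 for cytosolic ribosomal proteins. These are to be read beside its median difference of -0.059 over all tested genes. Rescaling by the median ratio brought that to 0.012, with 113 genes lower and 53 higher by at least 0.5. The cause of the difference between that replicate and the others was not tested. Leaving that replicate out gave 2677 genes higher and 1962 lower, in place of 2490 and 2220.

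**Figure D5:**
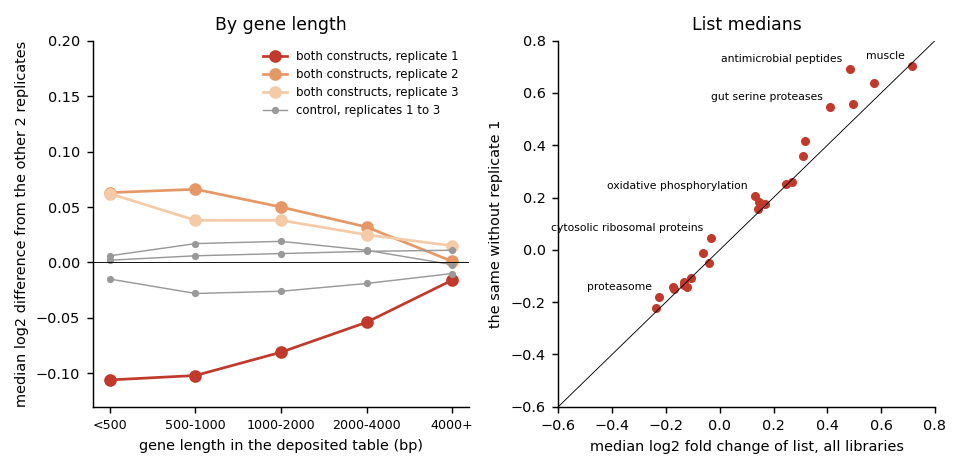
Left, median log2 difference of each replicate from the other 2 of its genotype by gene length class, for both constructs and control. Right, median log2 fold change of each list with all libraries and without replicate 1 of both constructs, with the line of equality (the 2 gland lists, under -0.6 on both axes, are outside the range shown); replicate 1 falls from -0.016 in the longest to -0.106 in the shortest genes.

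The authors' deposited table of differential genes for this comparison lists 346 genes, 244 higher and 102 lower, each with a log2 fold change of at least 1 in size and an FDR of at most 0.00939. Of these, 320 were among the genes tested here, and all 320 were called by limma with the same sign, although the values are not independent of each other. In the authors' deposited table Xrp1 had a log2 fold change of -2.34, brp of -1.69 and Hsp70Bb of 7.52. For ac4C capture, the authors' table lists 1316 peaks, in 1102 genes, as differing in capture between these genotypes, 1112 of them with an FDR above 0.05. Genes with such a peak made up 9.21% of the 4710 genes called here and 8.44% of those not called. Among the 20 genes named by size only CG15741 had one, at X:11837883-11837941, where the authors' log2 change of capture was -1.31 (FDR 0.358). Some other genes described above had a listed peak of lower FDR. The authors' log2 changes there were -1.13 in Sgs5 (FDR 2.26e-45), 1.03 in hid (FDR 0.00132) and 1.70 in Hr39 (FDR 0.0278). In eIF4A 1 peak had -1.27 (FDR 0.0446) and another -1.04 (FDR 0.162). Listed peaks of InR and dome had an FDR above 0.05. Promoter and transcript sequences were not analysed here.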

How the data were processed

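Poly(A) RNA of whole last-instar larvae was sequenced as input libraries for ac4C capture. The deposited values are FPKM per gene and library, made by the authors. Per the submitters' processing notes, fastp 0.23.1, STAR 2.7.6a, featureCounts from Subread 1.5.1, bedtools 2.30.0, deepTools 3.5.1 and HOMER 4.9.1 were used with build BDGP6. For the role of each tool and the strand setting, no source used here gives an answer. The authors' deposited table of differential genes gives a log2 fold change with its p-value and FDR, and their deposited table of capture gives read counts per peak, a fold enrichment ratio that was not used here, a log2 change and its p-value.

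Genes with at least 1 FPKM in at least 3 of 9 input libraries were kept, and log2(FPKM + 1) was modelled by limma 3.58.1 (R 4.3.3, robust, with a mean-variance trend, a mean per genotype over all 9 libraries, Benjamini-Hochberg adjustment over 11557 genes, threshold 0.05). A log2 fold change on that scale understates the change of low genes. FPKM times gene length came out as whole reads in 100% of values (within 0.1 read), so edgeR 4.0.16, with 5141 genes called, and DESeq2 1.42.0, with 4229, were run on those reads as alternatives. Other alternatives were pseudocounts of 0.1 and 5, other filters, rescaling by the median ratio, library weights, the 6 compared libraries alone, the replicate number as a block and each library left out in turn. The tests were first run on simulated reads. That simulation gave every library the same spread and held no replicate that stands apart, so nothing about these libraries is read from it.

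The genes and lists were chosen with earlier results of these data known. Genes named are both targets, the 10 rises and 10 falls of largest fold among called genes whose groups do not overlap and whose higher group averages 5 FPKM or more, and up to 5 called members of each list, plus all members of lists with 6 or fewer tested. Not every gene of that set is described above. Among those left out are the Turandot genes TotC and Victoria and the germline gene vas, none of them called. The germline gene AGO3, also left out, rose (0.33 ± 0.08, limma adjusted p = 0.0097). EcR, usp, Ilp8, upd1, upd3, TotA, phm, crc, Hsp83, Hsp26, Hsp27, Hsp23, Lcp1, Lcp2, Lsp2, Fbp1, ng2, fkh, Irbp18, DnaJ-1, Sgs5, Eig71Ee, sage, srp and Lsp1beta were named after their values were seen, whether or not the rule also names them. Gene positions and lengths are those of the deposited table, and overlaps between exons come from an Ensembl annotation of BDGP6.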

Additional observations from a re-analysis of the deposited data

How the results depend on the processing

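Over 16 alternatives the count of genes differing from control ran from 3843 to 5141, against 4710. Counts of genes at least 2-fold higher, 137 as reported, were 231 with a pseudocount of 0.1, 73 with 5, 242 with edgeR and 243 with DESeq2. Those at least 2-fold lower, 60 as reported, were 94, 32, 103 and 102 in the same order. The NAT10 gene l(1)G0020 was no longer called with DESeq2 (0.22, adjusted p = 0.0533), and its log2 fold change ran from 0.17 to 0.23 when each library was left out. The 210 genes in which replicate 1 with both constructs differed by at least 0.5 became 22 with a pseudocount of 5 and 166 after rescaling, both tried after seeing the data. Of 218 called named genes, 199 stayed called under every alternative that tested them, and none changed direction. Among all 3700 gene values 10 changed sign, in the uncalled genes Ilp8, Lsp2 and Hsp26. The medians of 10 lists changed sign under at least 1 alternative, each of them lying between -0.042 and 0.042 as reported. With the replicate number as a block 4539 genes were called, 2391 higher and 2148 lower, with 137 and 60 at least 2-fold, and no named gene changed its call. Deviations from the genotype means of same-numbered control and both-construct libraries had correlations of 0.016, -0.042 and 0.080. Those of differently numbered libraries ran from -0.113 to 0.089, so no pairing by number was seen. With 3 libraries per genotype these values cannot settle whether samples were handled in matched sets. Causes of these differences between settings were not tested. Genes near 1 FPKM are limited by depth.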
